A study of Danio rerio with 18 samples.

Results

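The 47 genes described here carry the psm symbols of zebrafish, which name the subunits of the proteasome together with its activators, assembly chaperones and inhibitor. They are the rows of the count table whose symbol starts with psma to psmg and a number, without numbered copies and with a mean of at least 10 raw reads over 18 larvae. They make up 47 of the 25266 genes in the table. The table held 55 such rows. Of these, 7 were numbered copies (of psmb5, psmc1a, psmc4, psmc6, psmd2 and psme4b), and psmb10 fell under the minimum. The members nearest to the minimum were psmb9a with a mean of 10.1 reads and psmb12 with 13.2 reads, and psmb10 lay just outside with 6.33 reads. One member, psmc3ip, is named as an interaction partner of psmc3 and is known as a cofactor of meiotic recombination, not as a piece of the proteasome. It is kept because the rule keeps it.

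The study asked how larvae sorted as resilient or as susceptible to stress differ in gene expression. Each library came from 1 whole wild-type zebrafish larva of the AB strain, sorted into its archetype at 6 dpf (days post fertilization) and collected at 7 dpf. The groups were 5 susceptible larvae taken 30 min after a stress of 5 min, 4 susceptible larvae taken at the basal state, 5 resilient larvae taken 30 min after the same stress, and 4 resilient basal larvae. Stressed and basal larvae are different animals, and the sources used here give neither the scoring of archetypes nor the clutch or day of a larva.

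The proteasome is the protease complex that breaks down proteins tagged with ubiquitin. Its core particle is a barrel of alpha and beta rings, with the protease sites inside the beta rings. A regulatory particle of ATPase and non-ATPase subunits caps the core, recognises tagged proteins, unfolds them and feeds them in. Other caps, the PA28 and PA200 activators, open the core without ubiquitin tags, and in cells exposed to interferon some beta subunits are exchanged for immune types.

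Total counts ranged from 8452595 to 23801175 reads per larva, and the 47 genes took 0.214% to 0.285% of them. Among 16 markers of muscle, liver, neurons, retina and other tissues of a whole larva, none was at 0 in any larva, and 1, the glial gene gfap, was called in any comparison (0.58 in resilient larvae after stress, SE 0.10, edgeR adjusted p = 0.00564; 0.075 without resilient basal 1 and 3, 0.0639 without resilient stressed 2 and 3). An earlier analysis of these libraries had found resilient basal 1 and 3, resilient stressed 2 and 3, and susceptible basal 1 and 2 apart from the others of their group on several gene lists. Calls of members and counts of called list genes that end without such a pair are given with and without it. Levels are in CPM, the reads of a gene scaled to a common library size, here with TMM factors. They are not corrected for gene length, so they compare larvae and not genes. A gene was called at an adjusted p below 0.05 (edgeR quasi-likelihood test, Benjamini-Hochberg over 22038 genes). Counts called by DESeq2, by voom or under any other alternative are given without the share of all genes called there, so they have no background beside them. Over the alternatives, all genes called ran from 38 to 1918 in resilient larvae after stress and from 16 to 1730 between the archetypes after stress. A changed count of members or list genes is therefore not read as a property of that list.

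Among the members kept by the rule, no subunit of the core or of the regulatory particle was called in any comparison by the main edgeR fit. Under some alternatives edgeR called psmb3 and psmd11b in resilient larvae after stress, and psmb3, psmd14 and psma6b between the archetypes after stress. The differences called in the main fit lay in 2 activator genes. In resilient larvae the PA200 gene psme4a rose after stress and the PA28 gene psme2 fell. These were 2 of the 47 members called, 1 higher and 1 lower, where 6.35% of all genes tested were called (2.76% higher and 3.59% lower). The median log2 fold change was 0.007 over the members and 0.004 over all genes. In susceptible larvae no member was called after stress, where the background was 0% of all genes. No member reached an unadjusted p below 0.05 there, where 7.45% of all genes did, and DESeq2 also called 0. The median log2 fold change of the members was -0.017, against -0.004 over all genes.

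Between the archetypes after stress, 1 member, psme4a, was lower in susceptible larvae, where 3.55% of all genes were called (1.77% in each direction). The members' median was 0.0006, with 24 positive and 23 negative, against -0.003 over all genes. At the basal state 0 members were called by edgeR or by DESeq2, with 0% of all genes called by edgeR. An unadjusted p below 0.05 was reached by 0 members and by 5.95% of all genes. The median there was -0.008 over the members and 0.003 over all genes. The difference between the stress responses, susceptible minus resilient, was called for 0 members by edgeR and by DESeq2, where edgeR called 0.141% of all genes (0.0681% higher and 0.0726% lower). Its unadjusted p was below 0.05 for 8 members, 17% of them, and for 13.1% of all genes. These comparisons share larvae: the resilient stressed larvae enter both the stress comparison of resilient larvae and the comparison of archetypes after stress.

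**Figure D1:**
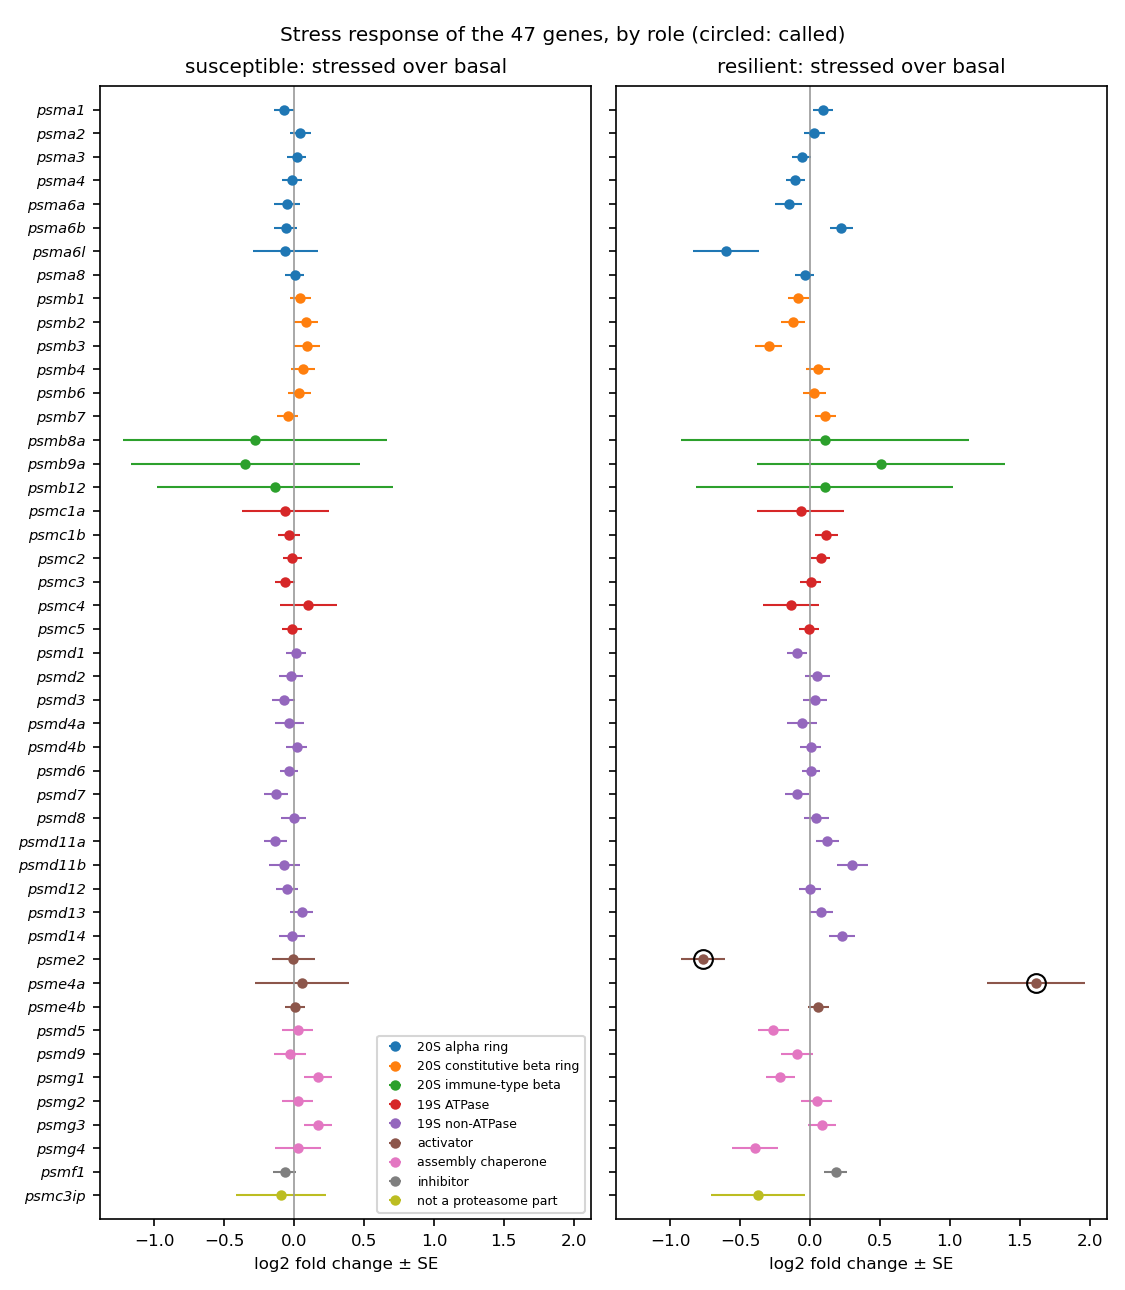
Log2 fold changes of stressed over basal larvae (x axis, points with SE bars) for the 47 genes, coloured by role, in susceptible larvae on the left and resilient larvae on the right. Called genes are circled: psme4a at 1.62 and psme2 at -0.77 in resilient larvae lie apart from a column of points near 0, and the widest bars belong to psmb8a, psmb9a and psmb12.

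The PA200 activator is a single large protein that caps the core and is known for a role in the turnover of acetylated histones. Zebrafish have a pair of genes for it. The level of psme4a was 322, 470, 529, 279 and 237 CPM in resilient stressed larvae 1 to 5, against 60.8, 195, 94.5 and 128 CPM in resilient basal larvae 1 to 4. All 5 stressed larvae lay above all 4 basal larvae, with resilient stressed 2 and 3 highest and resilient basal 1 lowest. The means were 367 ± 126 CPM in stressed larvae (SD, n = 5) and 120 ± 57.3 CPM in basal larvae (SD, n = 4), a 3.07-fold difference (log2 fold change 1.62, SE 0.35, edgeR adjusted p = 0.0154).

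In susceptible larvae psme4a was not called. It had 110, 101, 113, 150 and 215 CPM when stressed, against 91.3, 111, 161 and 166 CPM at the basal state, and the groups overlapped throughout. The log2 fold change was 0.06 (SE 0.34, edgeR adjusted p = 0.995). After stress, every susceptible larva lay below every resilient larva, with the highest susceptible larva at 215 CPM and the lowest resilient one at 237 CPM. That difference was called (log2 fold change -1.41, SE 0.32, edgeR adjusted p = 0.0274). At the basal state the archetypes overlapped, with 132 ± 37.0 CPM in susceptible larvae and 120 ± 57.3 CPM in resilient larvae (SD, n = 4 each). The difference between the stress responses, susceptible minus resilient, was -1.56 (SE 0.48, edgeR adjusted p = 0.173), so a call in one archetype and none in the other was not shown to be a difference between them.

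Of all 47 members, those not overlapping between the groups were psme4a among the higher and psme2 among the lower in resilient larvae after stress, where 4.11% and 4.36% of all genes did not overlap. The call of psme4a in resilient larvae depended on which larvae were kept, while its log2 fold change ran from 1.40 to 1.96 over 18 single larvae left out. Resilient basal 1 and 3 were the lowest basal larvae, and resilient stressed 2 and 3 the highest stressed larvae. Leaving out either pair therefore lowers the difference, and fewer larvae are left to test. The call ended without resilient basal 1 (edgeR adjusted p = 0.0533), without resilient basal 3 (0.0529), without both (log2 fold change 1.19, adjusted p = 0.234), without resilient stressed 2 and 3 (1.22, adjusted p = 0.14), and when the resilient groups were fitted alone (0.0594), with adjusted p from 0.00653 to 0.0533 over 18 single larvae left out. The call between the archetypes after stress ended when any of susceptible stressed 1 to 4 or resilient stressed 2 or 3 was left out, with adjusted p from 0.0157 to 0.085 over the 18. Without resilient stressed 2 and 3 that log2 fold change was -1.02 (adjusted p = 0.273).

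The other PA200 gene, psme4b, was not called in any comparison. Its level was 64.5 ± 5.87 CPM in resilient stressed larvae (SD, n = 5) and 62.0 ± 3.90 CPM in resilient basal larvae (SD, n = 4), with log2 fold change 0.06 (SE 0.07, edgeR adjusted p = 0.715). In susceptible larvae it was 63.8 ± 4.49 CPM after stress (SD, n = 5) and 63.5 ± 3.25 CPM at the basal state (SD, n = 4). Among reads of both genes, psme4a took 84.2 ± 3.84% in resilient stressed larvae, against 63.4 ± 10.01% in resilient basal larvae. Its share was 67.2 ± 6.57% in susceptible stressed and 66.6 ± 7.32% in susceptible basal larvae. A numbered copy of psme4b is a row of its own, with a mean of 3.11 raw reads against 945 for psme4b. Few of the counted reads thus lay on that copy, and how reads shared by both were treated is not stated.

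**Figure D2:**
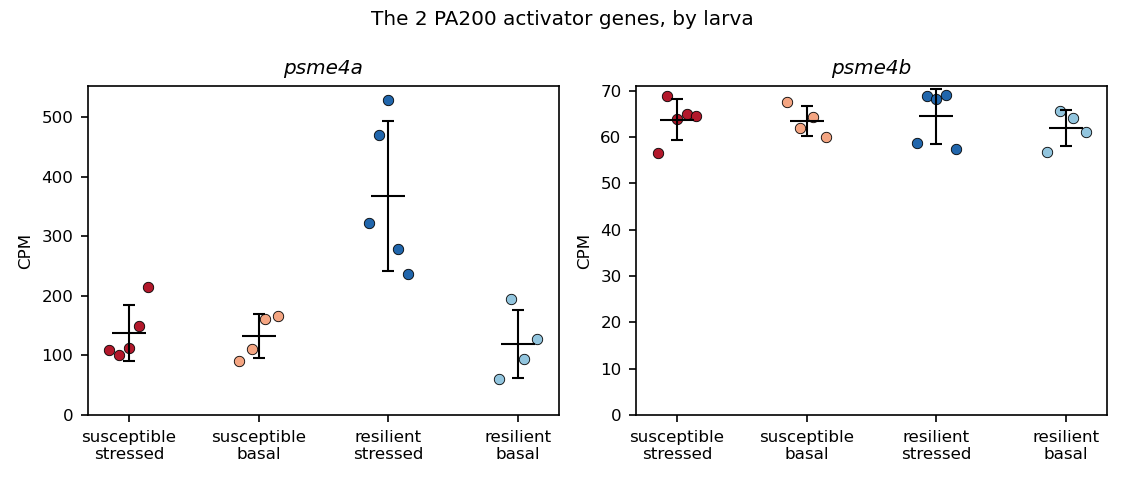
CPM of psme4a and psme4b in each larva (points), with the group mean and SD (black bar and whiskers), in the order susceptible stressed, susceptible basal, resilient stressed, resilient basal. The 5 resilient stressed larvae stand highest for psme4a, at 237 CPM and above, while the group means of psme4b lie between 62.0 and 64.5 CPM.

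The gene psme2 encodes the beta subunit of PA28, the interferon-inducible activator that opens the core for peptides and is known from antigen processing. It had 9.09, 8.65, 8.37, 7.87 and 8.77 CPM in resilient stressed larvae, against 13.0, 13.5, 18.1 and 13.7 CPM in resilient basal larvae. All stressed larvae lay below all basal larvae, and resilient basal 3 stood highest. The log2 fold change was -0.77 (SE 0.16, edgeR adjusted p = 0.00971), a 1.70-fold lower level after stress.

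In susceptible larvae psme2 was 11.97, 9.83, 12.9, 11.99 and 12.1 CPM after stress, against 11.2, 17.4, 8.84 and 9.63 CPM at the basal state. The basal larvae lay on both sides of the stressed ones, and susceptible basal 2 was far above the other 3. The log2 fold change was -0.01 (SE 0.16, edgeR adjusted p = 0.998). After stress all 5 susceptible larvae lay above all 5 resilient larvae, but the difference of 0.46 (SE 0.15) was not called in the main fit (edgeR adjusted p = 0.0877). This difference was called with those groups fitted alone (adjusted p = 0.0323), without susceptible basal 2 (0.0261) and without susceptible basal 1 and 2 (0.0239). The gene psme2 was the 1 member of 47 whose groups did not overlap upwards, where 2.46% of all genes did so, while psme4a was the 1 member that did so downwards, where 2.52% did. At the basal state the difference was -0.31 (SE 0.16, edgeR adjusted p = 0.853).

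The call of psme2 in resilient larvae held with each of the 18 larvae left out (edgeR adjusted p from 0.00176 to 0.0397). It ended without resilient basal 1 and 3 (-0.66, adjusted p = 0.176) and without resilient stressed 2 and 3 (-0.76, adjusted p = 0.0921). The difference between the stress responses was 0.76 (SE 0.22, edgeR adjusted p = 0.14). It was called without susceptible basal 2 (1.00, adjusted p = 0.0197) and without susceptible basal 1 and 2 (1.11, adjusted p = 0.0341).

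Markers of leukocytes, cells that express PA28 strongly in mammals, were read beside psme2. These markers were listed with earlier results of these data known, so their counts are a description. Of 16 leukocyte markers tested, 2 were lower and 0 higher in resilient larvae after stress, with a median log2 fold change of -0.55. They were lcp1, an actin-bundling protein of blood cells (-1.12, SE 0.30, edgeR adjusted p = 0.0386), and mfap4, a macrophage marker in zebrafish (-1.48, SE 0.38, edgeR adjusted p = 0.0325). Of all genes tested, 3.59% were called lower and 2.76% higher. In the list 13 were negative, 7 at an unadjusted p below 0.05, and 3 positive, 1 at such a p. The mean of rag1 was 13.7 CPM after stress and 9.77 CPM at the basal state, and that of rag2 3.43 and 2.77 CPM. The count of 2 fell to 0 without resilient basal 1 and 3 (lcp1 -0.60, adjusted p = 0.541; mfap4 -0.57, adjusted p = 0.602) and to 0 without resilient stressed 2 and 3 (lcp1 -0.92, adjusted p = 0.257; mfap4 -1.37, adjusted p = 0.213). It was also 0 with the resilient groups fitted alone and without any one of resilient basal 1 or 3 or resilient stressed 2, 3 or 4, and it ran from 0 to 3 over the 18 larvae left out. DESeq2 called 4. The summed level of the list ran from 162 to 302 CPM in resilient stressed larvae and from 235 to 478 CPM in resilient basal larvae. It ran from 262 to 435 CPM in susceptible stressed larvae and from 256 to 536 CPM in susceptible basal larvae. No marker of the list was at 0 in any larva. In susceptible larvae after stress 0 markers were called, with 0 at an unadjusted p below 0.05 and 0 called by DESeq2. Of all genes tested, edgeR called 0% there, and 7.45% had an unadjusted p below 0.05. Between the archetypes after stress 2 were higher in susceptible larvae, marco and spi1b, a scavenger receptor of macrophages and a myeloid transcription factor. That count was 0 without resilient stressed 2 and 3, ran from 0 to 4 over single larvae left out, and was 5 with DESeq2. The count over all genes ran from 16 to 1730 over the alternatives there. Of all genes tested, edgeR called 1.77% higher in that comparison. The part of leukocytes in the psme2 difference was not tested, and in RNA of a whole larva fewer cells of a type and less RNA per cell cannot be told apart.

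**Figure D3:**
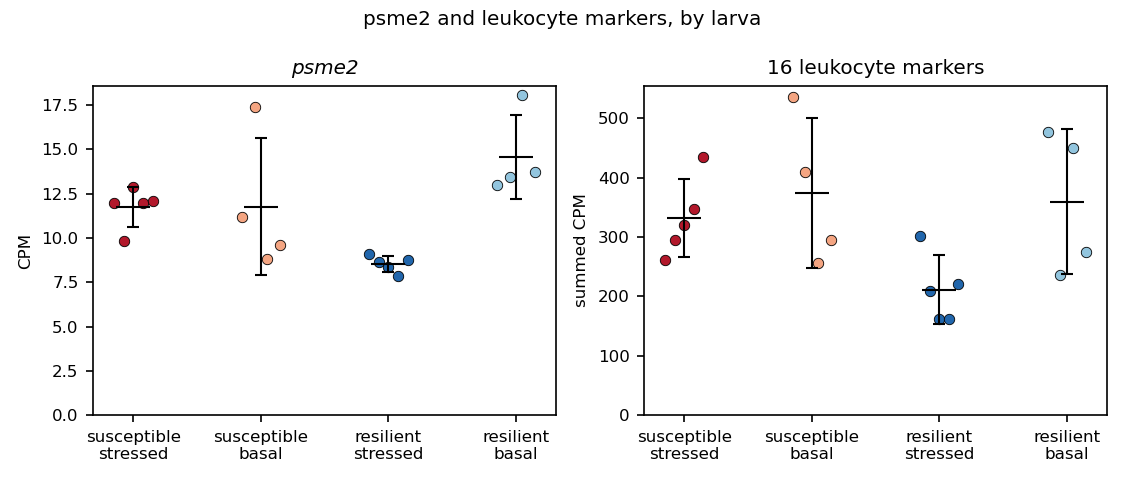
CPM of psme2 (left) and summed CPM of 16 leukocyte markers (right) in each larva, with the group mean and SD. The group mean of resilient stressed larvae is lowest in both, with larvae at 7.87 to 9.09 CPM for psme2 and 162 to 302 CPM for the markers. Single larvae of other groups lie within both ranges or below their tops. The markers' groups overlap, and those of psme2 in resilient larvae do not.

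Genes of antigen processing and interferon signalling, which share their inducer with PA28, were read beside it. They too were listed with earlier results of these data known, so their counts are a description. Of 19 tested, 4 were lower and 0 higher in resilient larvae after stress, with a median log2 fold change of -0.24. They were irf9 (-0.52, SE 0.13), stat1b (-1.13, SE 0.30) and irf8 (-0.69, SE 0.19), transcription factors of interferon responses, and tapbp.1 (-0.58, SE 0.16), which encodes tapasin, a loading factor for class I molecules. Their edgeR adjusted p ran from 0.0274 to 0.039. Of all genes tested, 3.59% were called lower and 2.76% higher, with a median of 0.004. The list did not move 1 way: 8 of the 19 were positive and 11 negative, with values up to 1.05. At an unadjusted p below 0.05 there were 2 positive and 7 negative genes. The mean of cd74a was 3.25 CPM after stress and 1.54 CPM at the basal state, and that of cd74b 3.49 and 1.87 CPM. The count of 4 fell to 0 without resilient basal 1 and 3 and to 0 without resilient stressed 2 and 3, where irf8 was -0.49 and -0.63 and tapbp.1 -0.66 and -0.40. It was 2 with the resilient groups fitted alone, and 0 to 2 without any one resilient larva other than resilient stressed 1. In susceptible larvae 0 were called, by edgeR and by DESeq2, and 2 had an unadjusted p below 0.05. Susceptible basal 2, the susceptible basal larva highest for psme2, had 16.7 CPM of isg15, against 1.40, 4.48 and 2.37 CPM in susceptible basal 1, 3 and 4. For stat1b it had 17.2 CPM, against 5.54, 8.35 and 4.88 CPM. Not all genes of the list stood out there: b2m had 5.59 CPM, against 6.10, 5.45 and 5.49 CPM. The cause was not tested. There edgeR called 0% of all genes, and 7.45% had an unadjusted p below 0.05. After stress tapbp.1 was the 1 gene of the list that was higher in susceptible than in resilient larvae (0.64, SE 0.15, edgeR adjusted p = 0.0287; 0.45, adjusted p = 0.295 without resilient stressed 2 and 3). The count of 1 ran from 0 to 3 over single larvae left out and was 3 with DESeq2. Of all genes tested, edgeR called 1.77% higher in that comparison.

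The other 45 members were not called in any comparison of the main fit. Their log2 fold changes lay within 0.3 of 0 for 40 members in resilient larvae after stress, for 44 in susceptible larvae after stress, for 41 between the archetypes after stress, for 42 at the basal state and for 38 in the difference between the stress responses. The values furthest from 0 were -0.60, -0.35, 0.47, 0.72 and -0.86 in these comparisons. The median SE of a member was 0.09, 0.09, 0.08, 0.09 and 0.12, but that of psmb8a, psmb9a and psmb12 was far larger, so for these a difference of this size could not be resolved. Summed over all 47 genes, the level was 2296 ± 95.3 CPM in susceptible stressed (SD, n = 5), 2300 ± 46.0 CPM in susceptible basal (SD, n = 4), 2576 ± 258 CPM in resilient stressed (SD, n = 5) and 2325 ± 82.5 CPM in resilient basal larvae (SD, n = 4). Without psme4a the resilient sums were 2209 ± 191 CPM after stress and 2205 ± 93.3 CPM at the basal state.

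The core and regulatory particles together gave 33 genes: 8 alpha, 6 constitutive beta, 6 ATPase and 13 non-ATPase subunits. In resilient larvae after stress 19 of these were positive, with a median log2 fold change of 0.005 and a range of -0.60 to 0.30, and 0 were called in the main edgeR fit. An unadjusted p below 0.05 was reached by 2 alpha, 1 beta, 0 ATPase and 2 non-ATPase genes, and DESeq2 called the beta subunit gene psmb3. Of all genes tested, 21.6% had such a p and 6.35% were called in the main fit. In susceptible larvae 12 were positive, with a median of -0.018 and a range of -0.14 to 0.10. The genes psmc1a, psmc4 and psmd2 have numbered copies outside the rule, so their reads may be split. The subunit genes psmb5 and psmc6, present only under numbered names, are not covered by these counts. No row carried the symbols psma5, psme1 or psme3, so these are not covered either, and psme2 is the only PA28 gene read here.

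Among the beta subunits, psmb6 and psmb7 carry 2 of the 3 kinds of protease site. The gene of the third, psmb5, was read only under a numbered name and is outside the rule. The caspase-like subunit gene psmb6 had 54.1, 65.5, 53.2, 46.8 and 62.2 CPM in resilient stressed larvae, against 52.7, 52.7, 60.4 and 55.0 CPM in resilient basal larvae. In susceptible larvae it had 56.3, 53.0, 50.7, 56.7 and 50.9 CPM after stress, against 53.4, 50.1, 52.5 and 52.6 CPM at the basal state. The groups overlapped in both archetypes, with log2 fold changes of 0.03 (SE 0.08) in resilient and 0.04 (SE 0.08) in susceptible larvae.

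The trypsin-like subunit gene psmb7 had 84.8, 98.8, 84.6, 75.4 and 95.5 CPM in resilient stressed larvae, against 78.4, 80.0, 86.1 and 80.9 CPM in resilient basal larvae. Its levels in susceptible larvae were 87.4, 82.0, 70.5, 80.9 and 80.1 CPM after stress, against 79.2, 81.2, 86.7 and 84.3 CPM at the basal state. Again the groups overlapped, and neither log2 fold change passed the test (0.11, SE 0.08 in resilient and -0.05, SE 0.08 in susceptible larvae). In both genes the resilient stressed larvae spread more widely than the other groups, with larvae 2 and 5 high and larva 4 low.

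Uncalled members with an unadjusted p below 0.05 numbered 8 in resilient larvae after stress, where 10 of 47 members in all were under that value. That is 21.3% of the members, beside 21.6% of all genes tested, so the share is close to the background. The structural beta subunit gene psmb3 came closest to a call (-0.30, SE 0.09, edgeR adjusted p = 0.0691). Its level was 43.7 ± 5.70 CPM in resilient larvae after stress (SD, n = 5), against 53.6 ± 6.72 CPM at the basal state (SD, n = 4). DESeq2 called it (adjusted p = 0.0392). The deubiquitinase of the lid, psmd14, had 0.23 (SE 0.09), and the lid subunit gene psmd11b 0.30 (SE 0.11). The alpha subunit genes psma6b and psma6l had opposite signs, at 0.22 (SE 0.08) and -0.60 (SE 0.24).

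Between the archetypes after stress 13 members had an unadjusted p below 0.05, 27.7% of them, beside 19.9% of all genes tested. The edgeR adjusted p nearest to a call after psme4a were 0.0639 for psmd14 (-0.29, SE 0.09) and 0.0659 for psma6b (-0.26, SE 0.08). For psmb3 the value was 0.096 (0.27, SE 0.09). DESeq2 and voom each called psmd14 and psma6b here beside psme4a. Of the 13 non-ATPase genes 9 had a negative log2 fold change in susceptible larvae, with a median of -0.08, 0 called by edgeR and 4 at an unadjusted p below 0.05. Of the 6 ATPase genes 4 were negative, with a median of -0.06, 0 called by edgeR or DESeq2 and 1 at an unadjusted p below 0.05. The resilient stressed larvae are the same in this comparison and in the one above, so the 2 sets of values are not independent.

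In susceptible larvae the smallest p after stress belonged to psmg3 and psmd11a. The core assembly chaperone gene psmg3 had 17.3, 17.3, 19.2, 17.6 and 14.9 CPM in stressed larvae, against 15.8, 12.8, 15.6 and 16.8 CPM in basal larvae, with the groups overlapping (log2 fold change 0.17, SE 0.10, edgeR adjusted p = 0.756). The lid subunit gene psmd11a had 29.5, 33.2, 28.0, 33.5 and 32.6 CPM in stressed larvae, against 34.6, 36.0, 33.7 and 33.6 CPM in basal larvae. All stressed larvae lay below all basal ones, by a margin small beside their spread, and the change was not called (-0.14, SE 0.08, edgeR adjusted p = 0.763). It was the 1 member that did not overlap downwards, where 1.43% of all genes did so, and 0 did so upwards, where 1.3% did.

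At the basal state the smallest p after that of psme2 was for psmd1, a large scaffold subunit of the base. It had 127, 142, 144 and 135 CPM in susceptible basal larvae, against 145, 153, 155 and 138 CPM in resilient basal larvae. The groups overlapped and the difference was not called (-0.11, SE 0.08, edgeR adjusted p = 0.895). No member failed to overlap at the basal state, where 1.63% of all genes were higher and 1.66% lower without overlap.

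The 6 assembly chaperone genes, whose products build the rings and the base and then leave, had a median log2 fold change of -0.15 in resilient and 0.03 in susceptible larvae after stress. In each, 0 were called by the main edgeR fit or by DESeq2, with 2 in resilient and 0 in susceptible larvae at an unadjusted p below 0.05. Of all genes tested, the main fit called 6.35% in resilient and 0% in susceptible larvae, and 21.6% and 7.45% had such a p. Without resilient stressed 5, edgeR called psmg4 in resilient larvae (adjusted p = 0.0285). The PAC1 chaperone gene psmg1 was higher in susceptible than in resilient stressed larvae by 0.30 (SE 0.10) without passing the test in the main fit (edgeR adjusted p = 0.0898). Without resilient stressed 5, edgeR called psmg1 (adjusted p = 0.0372) and psmg4 (0.0283) in that comparison. The inhibitor gene psmf1, whose product PI31 binds the core, had 0.18 (SE 0.08) in resilient larvae and -0.07 (SE 0.08) in susceptible larvae and was not called. The recombination cofactor gene psmc3ip was not called in either.

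The immune-type beta subunit genes psmb8a, psmb9a and psmb12 varied widely within groups, with a coefficient of variation of psmb8a from 70.03% to 117% over the 4 groups. Their products replace the constitutive protease subunits, and in zebrafish they lie in the class I region of the major histocompatibility complex, where haplotypes are known to differ in these genes. A haplotype difference was not tested. No row carried the symbols psmb8f, psmb9b or psmb13a, so immune-type genes under these names are not covered. Raw counts of psmb8a were 1, 32, 44, 28 and 45 in susceptible stressed larvae, against 76, 27, 1 and 19 in susceptible basal larvae. They were 16, 4, 26, 16 and 34 in resilient stressed larvae, against 0, 0, 34 and 27 in resilient basal larvae. Larvae with at most 1 read occurred in 3 of the 4 groups, and the ranges of the groups overlapped.

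The 3 genes were low together in the same larvae. Summed over psmb8a, psmb12 and psmb9a, susceptible stressed larvae held 5, 62, 82, 60 and 82 reads, against 126, 61, 1 and 40 reads in susceptible basal larvae. Resilient stressed larvae held 34, 12, 57, 42 and 63 reads, against 0, 0, 67 and 56 reads in resilient basal larvae. A count of 0 in resilient basal 1 allows up to 0.274 CPM, and in resilient basal 2 up to 0.186 CPM, taking 3 reads as the limit and counting error only. These limits hold for the named rows and not for immune-type subunits without a row. The psmb10 row, under the minimum of the rule, was also at 0 in resilient basal 1 and 2 and susceptible basal 3. That symbol is also an older name of psmb13a, so which gene the row counts is not settled.

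In the RefSeq gene table of zebrafish these 3 genes neighbour each other, with tapbp.1, tapbp.2, brd2a, hsd17b8 and the transporter gene tap2a (in the count table under its older symbol abcb3l1) close by. Of these, tap2a held 0 to 6 reads and was at 0 in 6 larvae: susceptible stressed 1, susceptible basal 2, resilient stressed 4 and 5, and resilient basal 1 and 2. The other 4 neighbours were counted in every larva, with tapbp.1 from 44 to 163 reads, tapbp.2 from 59 to 196, hsd17b8 from 23 to 90 and brd2a from 680 to 2120. In resilient basal 1 and 2, the larvae with 0 reads of the immune subunits, tapbp.1 had 74 and 114 reads. With larvae this far apart the tests could resolve little: log2 fold changes of psmb8a were 0.11 (SE 1.03) in resilient and -0.28 (SE 0.95) in susceptible larvae after stress. Those of psmb9a were 0.51 (SE 0.89) and -0.35 (SE 0.82), and those of psmb12 0.10 (SE 0.92) and -0.14 (SE 0.84). None was called.

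**Figure D4:**
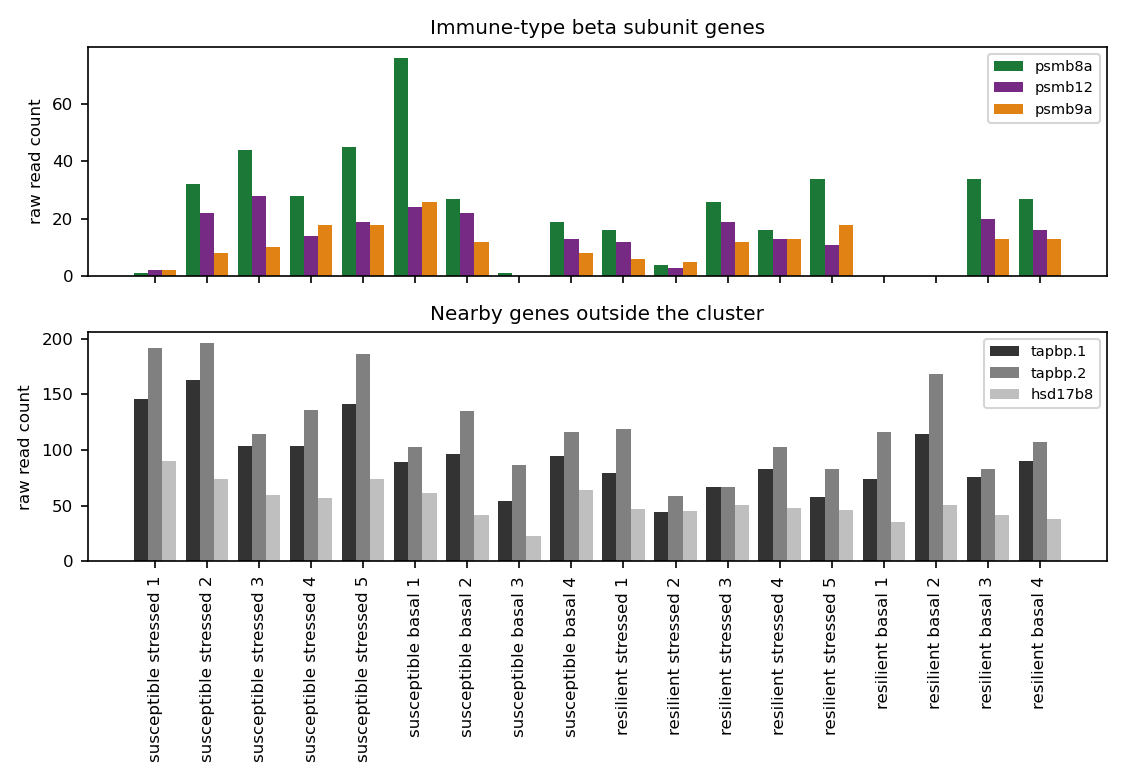
Raw read counts in each larva for psmb8a, psmb12 and psmb9a (top) and for 3 nearby genes (bottom), not scaled to library size. Resilient basal 1 and 2 have 0 reads of all 3 subunit genes, and susceptible basal 3 and susceptible stressed 1 hold 1 and 5 reads in all, while these 3 nearby genes are counted in all 18 larvae.

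Regulators of the ubiquitin and proteasome system outside the psm names were read beside the subunits. The list was chosen with earlier results of these data known, so its counts beside those of all genes are a description. Of 29 such genes tested, 7 were called higher and 1 lower in resilient larvae after stress, with a median log2 fold change of 0.07. Of all genes tested, 2.76% were called higher and 3.59% lower there, with a median of 0.004. The E3 ligase gene fbxo32, known as atrogin-1 from muscle wasting, had 199, 265, 241, 186 and 160 CPM in resilient stressed larvae, against 22.9, 110, 59.0 and 74.9 CPM in resilient basal larvae. All stressed larvae lay above all basal ones (1.65, SE 0.32, edgeR adjusted p = 0.00964).

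The ubiquitin-binding zinc finger gene zfand5b, whose mammalian product stimulates the proteasome, had 133, 150, 170, 151 and 118 CPM in resilient stressed larvae, against 67.7, 99.2, 115 and 93.5 CPM in resilient basal larvae. The groups did not overlap (0.62, SE 0.12, edgeR adjusted p = 0.0078). The polyubiquitin gene ubb averaged 321 ± 66.4 CPM in resilient larvae after stress (SD, n = 5) and 181 ± 29.3 CPM at the basal state (SD, n = 4), a difference of 0.82 (SE 0.17, edgeR adjusted p = 0.0113). It has a numbered copy, so reads may be split between them. The relatives zfand5a (0.37, SE 0.09) and zfand2a (0.38, SE 0.08) and both adaptors of the p97 unfoldase, ufd1l (0.33, SE 0.08) and nploc4 (0.38, SE 0.10), also rose. The shuttle factor gene ubqln4 fell (-0.23, SE 0.07, edgeR adjusted p = 0.0445).

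In susceptible larvae 0 of the 29 regulators were called after stress by edgeR and by DESeq2. Of them, 4 had an unadjusted p below 0.05, all negative, and the median was -0.06. Of all genes tested, edgeR called 0% there, and 7.45% had an unadjusted p below 0.05. The level of fbxo32 was 84.3 ± 17.8 CPM in susceptible stressed larvae (SD, n = 5) and 78.1 ± 13.5 CPM in susceptible basal larvae (SD, n = 4). Between the archetypes after stress 1.77% of all genes were called in each direction, with a median of -0.003. There 7 regulators were called lower and 0 higher in susceptible larvae, with a median of -0.09. They were zfand5b (-0.81, SE 0.11), ubb (-1.11, SE 0.16), zfand5a (-0.37, SE 0.08), fbxo32 (-1.32, SE 0.29), zfand2a (-0.32, SE 0.08), ufd1l (-0.29, SE 0.08) and nploc4 (-0.36, SE 0.10). The difference between the stress responses was called for 0 of the 29 by edgeR, with 11 at an unadjusted p below 0.05, and for 4 by DESeq2. Of all genes tested, edgeR called 0.141%, and 13.1% had an unadjusted p below 0.05. The DESeq2 share of all genes is not given, and the count over all genes ran from 5 to 417 over the alternatives. The edgeR adjusted p of that difference was 0.0547 for ubb and 0.0669 for zfand5b.

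The count of called regulators in resilient larvae fell to 1 when the resilient groups were fitted alone, to 1 without resilient basal 1 and 3 and to 0 without resilient stressed 2 and 3, and it ran from 3 to 10 over 18 single larvae left out. The count between the archetypes after stress ran from 2 to 11 over the same 18, and over all 30 alternatives, pairs included, it lay in the same range. Over the 18 single larvae left out, nploc4 lost its call between the archetypes in 13 fits, ufd1l in 9 and zfand2a in 5. There fbxo32 lost it in 4, zfand5a in 3, and zfand5b and ubb in 0. In resilient larvae ubqln4 lost its call in 10 of 18, nploc4 in 6, ufd1l in 4 and zfand5a in 3. The call of zfand2a was lost there in 1, and those of fbxo32, zfand5b and ubb in 0.

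**Figure D5:**
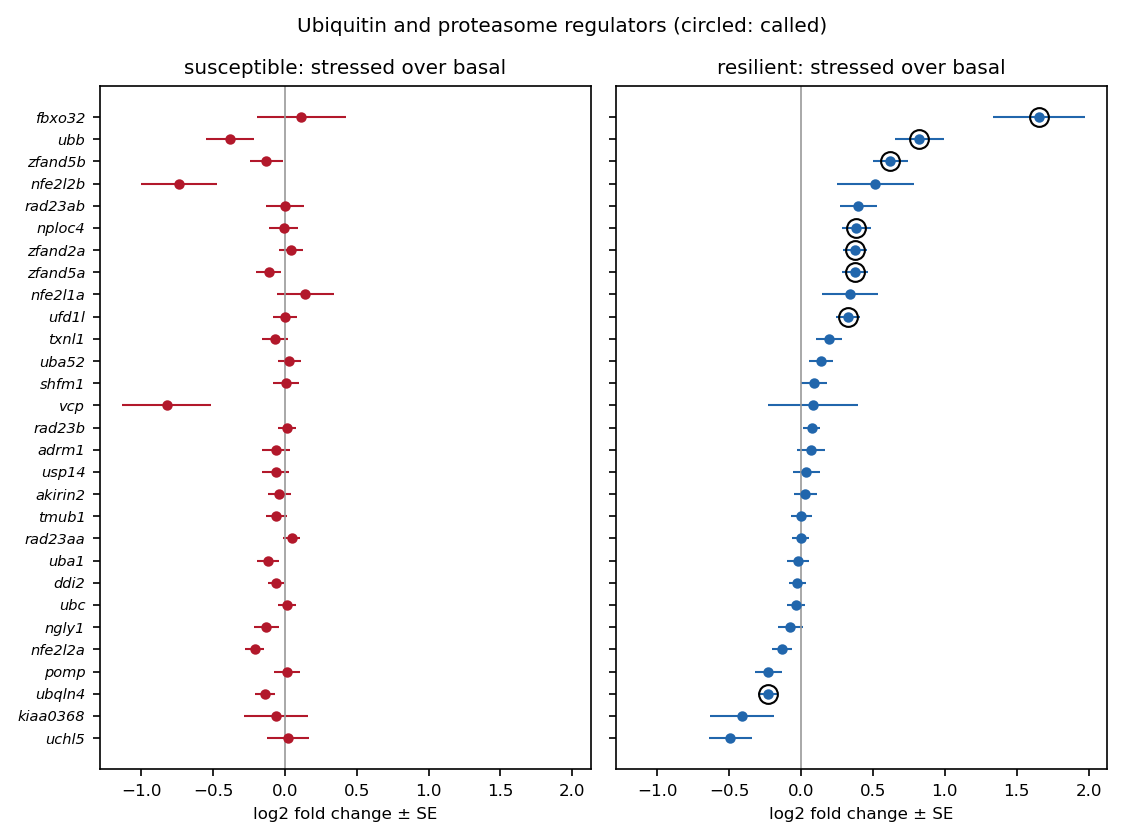
Log2 fold changes of stressed over basal larvae (points with SE bars) for 29 ubiquitin and proteasome regulators, in susceptible larvae on the left and resilient larvae on the right, ordered by the resilient value. The 8 circled genes on the right were called, led by fbxo32 at 1.65, and 0 were called on the left.

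Subunits of the core and regulatory particles varied together about their group means, with the larvae of all 4 groups pooled. After each gene's group mean was removed from its log2 CPM, 460 of the 528 pairs among the 33 genes had a positive correlation over 18 larvae, with a median r of 0.473 and a range of -0.658 to 0.916. A core gene had a median r of 0.654 with the mean of the others. Other genes had a median r of 0.010 with the mean of the 33, and 0.423% of them exceeded 0.654. These values describe larvae that share library depth and RNA quality with all their genes. No correlation was taken within single groups, and the other genes were not matched for level. The resilient stressed larvae spread most for some subunits and so weigh more there. The SD of psmb6 was 7.46 CPM in them, against 2.86 in susceptible stressed, 1.41 in susceptible basal and 3.64 CPM in resilient basal larvae. Of the activators, r with the core mean was -0.03 for psme4a and 0.26 for psme2. The lowest core gene was psmc1a, at -0.45, whose counts are low and which has a numbered copy.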

How the data were processed

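Each of the 18 libraries held RNA of 1 whole larva. The values used are the authors' raw read counts by gene symbol in 1 deposited table, per the file headers, which also holds 36 other per-sample columns not used. The submitters' processing notes name cutadapt, STAR, DESeq2 and the danRer11 build; versions, order, strand handling and treatment of reads shared by copies are not stated in those sources. Rows whose symbols had become dates (15 rows, 0.0613% to 0.0698% of reads) were left out.

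Counts were fitted with edgeR 4.0.16 (R 4.3.3; TMM factors, filterByExpr, robust quasi-likelihood F test) over all larvae with 4 group means; 22038 genes were tested, including all 47 members. SE came from dividing the size of the log2 fold change by the root of its F value. CPM use TMM factors, and log2 CPM a prior count of 2. The edgeR fit was run on counts simulated from the fitted dispersions with added changes, as a check of the size of the estimates only. The simulated counts held no deviant larvae or blocks, so they say nothing on calls that depend on such larvae.

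The members and lists were chosen with earlier results of these data known, so counts of list genes beside all genes are no test of a list. Values of every larva are given for called members, the 2 members of smallest p where none was called, and catalytic subunits with their immune types; list genes are the called ones of smallest p. Of 103 list entries 85 matched by symbol or older symbol (RefSeq names, GRCz12tu) and 80 were tested. Larvae of 1 group differed beyond sampling noise in all 32 pairs (chi-square per degree of freedom at least 6.50). Whether the numbers in the titles pair larvae was not settled. Deviations of same-numbered larvae correlated at -0.257 to 0.136 over 25 pairs, 2 of them over 0.1. By the bracketed number the values were -0.124 to 0.195 over 19 pairs, 4 of them over 0.1. Larvae with different numbers were not compared, so these values cannot decide whether a number marks a shared clutch or day. Alternatives were DESeq2 1.42.0, voom with quality weights per sample (limma 3.58.1), upper-quartile or RLE factors, no filter, at least 1 CPM in 4 libraries, the compared groups alone, replicate blocks, each larva left out and 3 pairs left out.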

Additional observations from a re-analysis of the deposited data

Results flagged for a closer look

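Of 64 sets of 4 or 5 larvae of 1 group examined with Dixon's criterion, 3 had a larva far from the others, and chance alone flags about 1 in 20. Resilient basal 3 was highest for psme2 at 18.1 CPM, with the next larva at 13.7 CPM. The same larva was highest for the summed level of the 6 constitutive beta subunit genes at 479.8 CPM, with the next at 424.7 CPM. Resilient stressed 5 was highest for the summed level of the 6 assembly chaperone genes at 100.3 CPM, with the next at 85.4 CPM. The cause of these values was not tested.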

How the results depend on the processing

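The count of 2 members called in resilient larvae after stress became 1 with those groups fitted alone, 1 with the bracketed number as a replicate block, 0 without resilient basal 1 and 3, and 0 without resilient stressed 2 and 3. It ran from 1 to 4 over single larvae left out, with 4 without resilient stressed 5. With the bracketed block the 1 call was psmb3 (edgeR adjusted p = 0.0415). Without resilient stressed 5, psmb3 (0.0397) and psmg4 (0.0285) were called as well, and without resilient stressed 4, psmd11b was (0.036). Between the archetypes after stress, edgeR called psmd14 (adjusted p = 0.034) and psma6b (0.0383) beside psme4a without resilient stressed 4. Without resilient stressed 5 it called psmg4 (0.0283), psmg1 (0.0372) and psmb3 (0.0474) there beside psme4a. The count of 1 between the archetypes after stress became 3 with DESeq2, 3 with voom, 2 with those groups alone, 0 with the bracketed block, 0 without resilient stressed 2 and 3, 2 without susceptible basal 1 and 2, and 0 to 4 over single larvae. The difference of responses had 0 members called, 1 without susceptible basal 1 and 2, and 0 to 1 over single larvae. In susceptible larvae and at the basal state 0 members were called under every alternative run. With the bracketed block the adjusted p of psme4a was 0.0605 in resilient larvae and 0.0619 between the archetypes after stress, and that of psme2 was 0.0527; the block by title number changed none of these counts. The regulators called were 0 in resilient larvae with the bracketed block. Counts over all genes moved as well. In resilient larvae after stress they ran from 38 to 1918 over the alternatives, with 1399 in the main fit. Between the archetypes after stress they ran from 16 to 1730, with 782 in the main fit. For the difference of responses they ran from 5 to 417, with 31 in the main fit.

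Values near 0 changed sign. In susceptible larvae after stress psme4a was -0.0062 with voom, -0.25 without susceptible basal 1 and 2 and -0.16 to 0.19 over single larvae. There psme2 was 0.097 with voom, 0.0083 with upper-quartile factors, 0.0017 with no filter, 0.34 without susceptible basal 1 and 2 and -0.12 to 0.24 over single larvae. At the basal state psme4a was -0.28 without resilient basal 1 and 3 and -0.075 to 0.48 over single larvae. The cause was not tested. No scaling moved the median of all genes by over 0.1. Low counts limit psmb8a, psmb9a and psmb12.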

Other observations

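The genes whose log2 CPM followed psme4a most closely over 18 larvae, among 14782 genes, were calcoco1b (r = 0.953), an autophagy receptor gene, xirp2b (r = 0.946), an actin-binding protein gene of striated muscle, and retreg1 (r = 0.941), a receptor gene for autophagy of the endoplasmic reticulum. The muscle E3 ligase gene fbxo32 ranked 7 (r = 0.927). After group means were removed the values were 0.918 for calcoco1b, 0.826 for xirp2b, 0.874 for retreg1 and 0.779 for fbxo32. These genes were chosen after their values were seen, so the values are a description. Larvae that share a group share its mean, and all genes of a larva share its depth.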
